A study of Mus musculus with 13 samples.

Results

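The 36 genes described here code for the junctions that hold epithelial cells together: tight junctions, adherens junctions, desmosomes and gap junctions. They were chosen by name, as a list of symbols, and all 36 were found among the 24394 gene symbols of the count table. In order of their roles they are Epcam and 2 classical cadherins, 7 claudins, 6 other tight junction membrane proteins, 4 proteins of the tight junction plaque and apical polarity, 4 desmosomal cadherins, 8 proteins of the desmosomal plaque, 2 connexins and 2 other apical or cortical proteins.

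The study followed mouse fibroblasts that were programmed towards thymic epithelial cells (TEC) by Foxn1, the transcription factor on which thymic epithelium depends. Its 13 RNA libraries form 6 groups: mouse embryonic fibroblasts (MEF) of E13.5 that received no treatment (n = 2), Cre-induced TEC (iTEC) of day 2 (n = 2) and of day 10 (n = 3), 2 fractions of day 12 iTEC, Epcam- (n = 2) and Epcam+ (n = 2), and untreated fetal TEC of E15.5 (n = 2). The genotype field of every sample is empty, but the protocols name primary iFoxn1/+ MEF, in which Foxn1 is switched on by Cre, and Cre came from the plasmid pPGK-Cre-bpA, delivered by nucleofection. The same protocol text, with its sort by flow cytometry, stands under the fetal samples too, so how the fetal TEC were bred and sorted is not stated. The labels do not tie replicates to different cultures or embryos, so the p-values reflect the spread between these libraries alone, and that spread may be technical. In bulk RNA, fewer cells that express a gene and less of its RNA in each cell cannot be told apart, and this holds for every value below.

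As background, adjacent epithelial cells are sealed near their apex by tight junctions, in which claudins form the paracellular barrier and ZO proteins tie them to actin. E-cadherin builds the adherens junction, and desmosomes couple desmogleins and desmocollins through plakoglobin, plakophilins and desmoplakin to keratin filaments. Fibroblasts use other cadherins and lack most of these proteins. Thymic epithelium is an unusual epithelium that forms a loose meshwork around developing T cells; Epcam is the common marker for sorting it, and Cldn3 and Cldn4 are known from precursors of its medullary part.

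The promoters of 5 genes are shown because these genes carry the main contrasts below: Cldn4 and Cldn3 are neighbours that parted at day 10, Cldn7 was at 0.1% of its fetal mean there, Epcam is the sorting marker, and Dsp reached the highest level of a desmosomal gene at day 10. The sequences are those of RefSeq on GRCm38.p6, 250 bases before to 50 bases after the annotated start, on the strand of the gene, 5′ to 3′. Capitals mark CACCTG or its reverse complement CAGGTG, the E-box that repressors of the Zeb and Snail families are known to bind.

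Cldn4 (chr5:134946885-134947184, minus strand): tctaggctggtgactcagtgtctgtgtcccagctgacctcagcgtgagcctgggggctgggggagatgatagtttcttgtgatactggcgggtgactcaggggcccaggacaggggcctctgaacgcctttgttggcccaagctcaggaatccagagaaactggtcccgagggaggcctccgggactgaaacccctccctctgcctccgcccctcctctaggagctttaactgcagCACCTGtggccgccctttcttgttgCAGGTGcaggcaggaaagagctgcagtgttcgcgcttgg
Cldn3 (chr5:134985964-134986263, plus strand): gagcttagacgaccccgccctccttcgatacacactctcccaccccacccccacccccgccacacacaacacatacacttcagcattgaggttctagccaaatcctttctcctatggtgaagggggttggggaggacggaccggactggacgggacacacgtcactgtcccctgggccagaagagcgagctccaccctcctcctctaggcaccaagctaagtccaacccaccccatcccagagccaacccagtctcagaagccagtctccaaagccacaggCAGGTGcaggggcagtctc
Cldn7 (chr11:69964529-69964828, plus strand): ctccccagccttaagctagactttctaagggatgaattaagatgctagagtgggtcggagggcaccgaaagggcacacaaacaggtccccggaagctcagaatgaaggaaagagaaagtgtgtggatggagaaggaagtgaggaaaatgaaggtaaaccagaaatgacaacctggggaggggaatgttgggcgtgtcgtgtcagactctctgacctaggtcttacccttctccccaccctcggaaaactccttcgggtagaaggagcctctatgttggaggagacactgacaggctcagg
Epcam (chr17:87635729-87636028, plus strand): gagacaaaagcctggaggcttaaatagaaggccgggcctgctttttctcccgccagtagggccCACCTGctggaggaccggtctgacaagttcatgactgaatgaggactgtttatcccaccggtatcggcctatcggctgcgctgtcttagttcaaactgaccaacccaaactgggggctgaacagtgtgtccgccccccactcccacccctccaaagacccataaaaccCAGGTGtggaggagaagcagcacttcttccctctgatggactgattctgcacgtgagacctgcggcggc
Dsp (chr13:38151044-38151343, plus strand): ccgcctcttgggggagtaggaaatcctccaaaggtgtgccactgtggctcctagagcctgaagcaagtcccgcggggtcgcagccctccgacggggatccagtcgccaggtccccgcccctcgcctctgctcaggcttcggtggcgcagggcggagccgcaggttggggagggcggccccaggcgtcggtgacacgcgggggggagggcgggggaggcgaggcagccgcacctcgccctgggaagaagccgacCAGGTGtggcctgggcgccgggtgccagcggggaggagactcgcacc

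Of the 36 genes, 19 matched a promoter in the RefSeq table, and 14 of these (73.7%) held CACCTG on either strand, against 5413 of all 27025 promoters of the same length (20.0%). The 5 without it were Cldn1, Cldn7, Tjp1, Cgn and Jup. The 17 genes that matched no promoter included Cdh1 and all the desmosomal cadherins, so the share describes the 19 alone. A second motif searched the same way, GACGC, which lies in sites described for Foxn1, was in 4 of the 19 (21.1%) and in 27.4% of all promoters. These are counts of letters in a window and no binding was measured here.

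Levels are CPM (read counts divided by the library size after TMM scaling, in the usual unit), and changes are log2 ratios of group means ± standard error from edgeR's quasi-likelihood F test, adjusted by Benjamini-Hochberg over all 17004 genes tested. The standard error is not given by edgeR and was derived as the size of the change divided by the square root of the F statistic. A gene is said to be called when its adjusted p was under 0.05. Of the 36 genes, 35 passed the filter on low counts; Gjb6, the connexin Cx30, did not, since it reached at most 0.103 CPM outside fetal TEC and stood at 0.996 and 0.0811 CPM there. Against a group without any count, the fold is given as "at least", taking 3 counts summed over its libraries as the floor. Against a group with 1 to 3 counts it is a ratio with its 95% counting interval; both cover counting error only. Without 1 of the MEF libraries, a bound against MEF is lower through the floor alone, by 2.45-fold (replicate 1) or 1.69-fold (replicate 2), and without 1 library of another group by 1.37- to 3.23-fold.

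Libraries differed in more than their group. They held 35805780 to 86465460 counts, and the rank correlation of level with transcript length was 0.294 to 0.339 in 10 libraries but -0.061 to -0.001 in Epcam+ replicate 2 and both fetal TEC libraries. Gapdh, a gene of glycolysis that all cells use, was listed at 0 to 7.2 CPM in the same 10 libraries and at 128 to 188 CPM in these 3, so a low value of a single gene in this table need not be a low level of its RNA. MEF and Epcam- libraries carried Xist (795 to 2278 CPM) and at most 0.0164 CPM of Y-linked genes, whereas day 2, day 10 and Epcam+ libraries carried Y-linked genes (46.3 to 326 CPM). Fetal TEC also carried Y-linked genes (40.8 and 32.8 CPM), with 6.05 and 8.21 CPM of Xist. A change across this line, fetal TEC against MEF included, cannot be told apart from a change of embryo. The 10 thymic epithelial markers summed to 636 and 802 CPM in MEF, of which Ctsl alone gave 610.3 and 782.5 CPM. In fetal TEC they summed to 40355 and 60568 CPM. The fetal libraries also held markers of thymocytes (1123 and 481 CPM), endothelium (79.4 and 46.8 CPM) and fibroblasts (4258 and 2682 CPM, against 56371 and 61037 CPM in MEF). Fibroblast markers summed to 6445 and 7549 CPM at day 2, 12383 to 13337 CPM at day 10, and 10760 and 10026 CPM in Epcam- cells. Of that list, Dcn alone was higher in fetal TEC (672 and 659 CPM) than in MEF (138 and 156 CPM). The part of fibroblast RNA in the results was not tested. Macrophage markers summed to 2761 and 2791 CPM in MEF, 520 and 526 CPM in fetal TEC, 203 and 11.8 CPM in the Epcam+ pair and at most 3.82 CPM elsewhere; their part in the results was not tested.

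**Figure D1:**
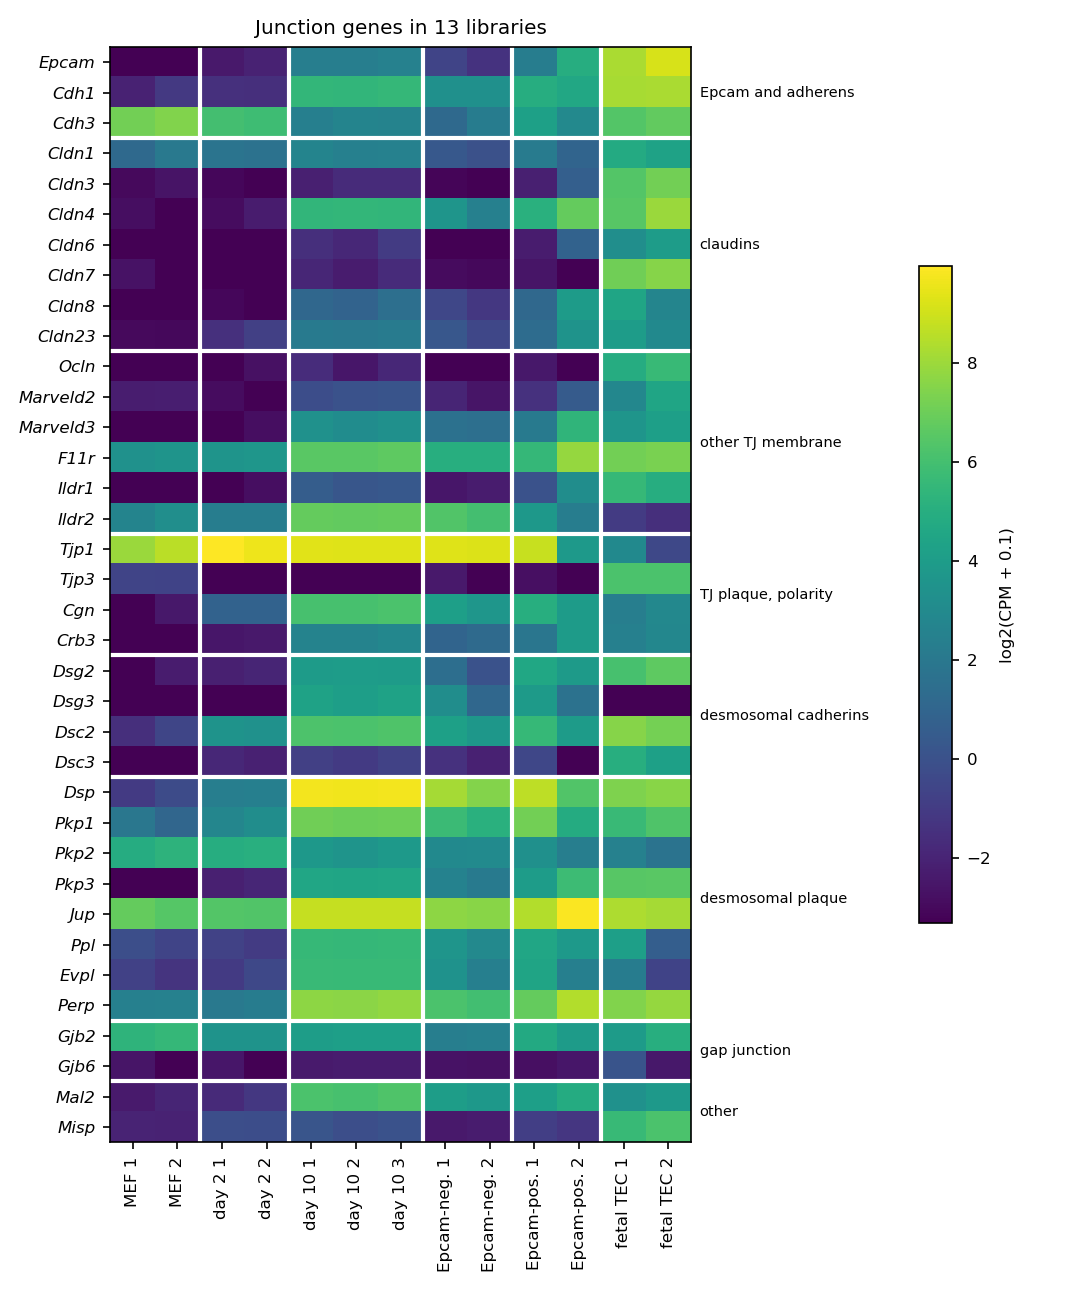
Level of each of the 36 genes (rows, grouped by role) in each of the 13 libraries (columns, grouped by sample group), as log2(CPM + 0.1) on the colour scale. Most rows are dark in MEF and day 2 and bright from day 10 on, whereas Cldn7, Ocln, Tjp3 and Misp are bright in fetal TEC alone.

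Epcam and E-cadherin rose together but to unlike parts of the fetal level. Epcam (chr17:87635979-87651129, plus strand), a surface glycoprotein that binds Cldn7, was at 0 in both MEF libraries, at 0.0907 and 0.143 CPM at day 2, and at 5.03, 5.05 and 5.53 CPM at day 10. After the sort for it there were 0.56 and 0.29 CPM in Epcam- cells and 4.8 and 30.6 CPM in Epcam+ cells, and fetal TEC held 312 and 574 CPM. No library of one of these groups overlapped another, except that Epcam+ replicate 1 stood at the level of day 10, which was unsorted. Cdh1, the E-cadherin gene (chr8:106603351-106670246, plus strand), measured 0.138 and 0.361 CPM in MEF, 0.254 and 0.247 CPM at day 2, and 44.1, 42.4 and 46.6 CPM at day 10. It measured 10.2 and 9.95 CPM in Epcam- cells, 31.5 and 24.5 CPM in Epcam+ cells, and 299 and 315 CPM in fetal TEC. Day 10 thus held 14.5% of the fetal mean of Cdh1 and 1.17% of that of Epcam.

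Cdh3, the P-cadherin gene, lies 46.1 kb from Cdh1 on chromosome 8 and went the opposite way. It measured 139 and 177 CPM in MEF, 64.3 and 56.3 CPM at day 2, and 5.22, 6.33 and 6.1 CPM at day 10. The Epcam- pair held 2.26 and 4.68 CPM, the Epcam+ pair 19 and 7.47 CPM, and fetal TEC 84.8 and 111 CPM. MEF and fetal TEC were therefore the high groups, and the day 10 and day 12 cells the low ones.

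Among the 7 claudins, Cldn4 was the most abundant at day 10, at 25.4% of its fetal mean, while Cldn3 and Cldn7, which accompany it in fetal TEC, stood at 0.161% and 0.1% of theirs. Cldn4 (chr5:134945119-134946934, minus strand), a sealing claudin, measured 0.0415 and 0 CPM in MEF, 0.0363 and 0.104 CPM at day 2, and 42.8, 44.7 and 43.4 CPM at day 10. It measured 12 and 5.43 CPM in Epcam- cells, 35 and 115 CPM in Epcam+ cells, and 92.1 and 251 CPM in fetal TEC. Cldn3, whose gene lies 39.3 kb away on the same chromosome, measured at most 0.0602 CPM in MEF and day 2, and 0.124, 0.205 and 0.207 CPM at day 10. It stood at 0.0144 and 0 CPM in Epcam- cells, 0.127 and 1.54 CPM in Epcam+ cells, and 83.7 and 139 CPM in fetal TEC. In fetal TEC the 2 neighbours had similar mean levels per kb of transcript (94.5 CPM per kb for Cldn4, 88.3 for Cldn3), and at day 10 they stood at 24 and 0.142 CPM per kb. Level did not rise with length in the fetal libraries, and without the division by length the fetal means were 172 and 111 CPM.

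Cldn7 (chr11:69964779-69967885, plus strand), the claudin bound by Epcam, was the most abundant of these claudins per kb in fetal TEC, with 133 and 186 CPM. By CPM the fetal mean of Cldn4 was higher (172 against 159 CPM). In every other library it was at most 0.207 CPM, including both Epcam+ libraries (0.069 and 0 CPM). Cldn6, found in embryonic epithelia, was at 0 in MEF, day 2 and Epcam- cells and at 0.179 to 0.388 CPM at day 10, against 9.28 and 16 CPM in fetal TEC. Cldn8 and Cldn23 rose from at most 0.0276 CPM in MEF to day 10 means of 2.2 ± 0.496 and 4.26 ± 0.253 CPM (SD, n = 3), which is 15.2% and 35.9% of the fetal mean. The fetal libraries disagreed, at 22.4 and 6.51 CPM for Cldn8 and 16 and 7.77 CPM for Cldn23. Of these fetal means, Epcam+ replicate 1 held 15.1% and 20.9% and replicate 2 held 108% and 95.2%. Cldn1, a barrier claudin of skin, was the one of these 7 claudins already above 1 CPM in MEF, with 2.25 and 3.97 CPM, and stood at 5.51 to 6.16 CPM at day 10 and 27.5 and 19.9 CPM in fetal TEC.

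The other membrane proteins of the tight junction split in the same way. F11r, which codes for the adhesion molecule JAM-A, measured 10.3 and 11.8 CPM in MEF, 11.7 and 12.6 CPM at day 2, and 95.3, 94.8 and 101 CPM at day 10. Its other values were 32.5 and 32.6 CPM in Epcam- cells, 45.7 and 229 CPM in Epcam+ cells, and 143 and 156 CPM in fetal TEC. Marveld3, a relative of occludin, rose from 0 in MEF to 8.79 to 10.4 CPM at day 10, which is 66% of the fetal mean. Occludin itself (Ocln) and tricellulin (Marveld2), the protein of three-cell contacts, lie 43.2 kb apart on chromosome 13; at day 10 they reached 0.399% and 6.08% of the fetal mean.

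The angulins Ildr1 and Ildr2, which recruit tricellulin, exchanged places between day 10 and fetal TEC. Ildr1 was at 0 in MEF, 1.39, 1.08 and 1.16 CPM at day 10, and 47.1 and 31.2 CPM in fetal TEC. Ildr2 (chr1:166254139-166316823, plus strand) measured 6.39 and 9.21 CPM in MEF, 4.77 and 4.88 CPM at day 2, and 111, 109 and 113 CPM at day 10. It remained at 80.5 and 64.4 CPM in Epcam- cells, stood at 13.7 and 4.8 CPM in Epcam+ cells, and was lowest in fetal TEC, at 0.398 and 0.243 CPM. Ildr2 overlaps an antisense gene over 697 bases, and the strand setting of the counting is not stated.

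In the tight junction plaque, ZO-1 and ZO-3 were also opposed. Tjp1, the ZO-1 gene, which fibroblasts are known to express, measured 251 and 386 CPM in MEF, 998 and 793 CPM at day 2, and 649, 636 and 631 CPM at day 10. It measured 644 and 610 CPM in Epcam- cells, and the Epcam+ pair was split at 455 and 14.4 CPM. Fetal TEC held 7.67 and 0.629 CPM, so the 3 low libraries are those with the shifted length correlation; the Tjp1 transcript is 7.05 kb long. Tjp3, the epithelial ZO-3 gene, measured 74 and 72.9 CPM in fetal TEC, 0.567 and 0.542 CPM in MEF, and at most 0.0862 CPM in the 9 other libraries, all 3 of day 10 being at 0. Cgn, the gene of cingulin, which binds ZO proteins, went from 0 and 0.0802 CPM in MEF to 1.69 and 1.7 CPM at day 2 and 68, 68.5 and 72.5 CPM at day 10. It was lower in Epcam- cells (18.1 and 12.3 CPM), Epcam+ cells (31.76 and 15.51 CPM) and fetal TEC (4.98 and 7.14 CPM). Crb3, an apical polarity gene, was at 0 in MEF and met the fetal range at day 10, with 5.96 to 6.98 CPM against 5.33 and 7 CPM.

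Of the desmosomal cadherins, Dsc2 appeared first. It measured 0.249 and 0.582 CPM in MEF, 11.1 and 10.5 CPM at day 2, 77.5, 72.2 and 80.2 CPM at day 10, and 190 and 147 CPM in fetal TEC. The Epcam- pair held 18.4 and 12.8 CPM of Dsc2 and the Epcam+ pair 47.2 and 15.6 CPM. Dsg2, the desmoglein of simple epithelia, was at most 0.156 CPM in MEF and day 2, 15.6, 16 and 15.6 CPM at day 10, and 69.4 and 103 CPM in fetal TEC. The Epcam- pair was at 2.72 and 0.921 CPM and the Epcam+ pair at 23.6 and 15 CPM, so of the Epcam+ pair replicate 1 lay above the day 10 libraries and replicate 2 just below them, and both lay below fetal TEC.

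The partner genes in the same cluster on chromosome 18 behaved unlike them. Dsg3, a desmoglein of stratified epithelia 10.6 kb from Dsg2, was at 0 in MEF, day 2 and both fetal TEC libraries and measured 20.1, 17.1 and 20.2 CPM at day 10. It was also counted in Epcam- cells (9.04 and 2.04 CPM) and Epcam+ cells (14.9 and 3.08 CPM). Dsc3, 28.3 kb from Dsc2, showed the reverse, with 32.5 and 18.7 CPM in fetal TEC and at most 0.621 CPM elsewhere.

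The desmosomal plaque held the gene with the highest CPM of the set at day 10, Dsp. Dsp, the gene of desmoplakin (chr13:38151294-38198577, plus strand), measured 0.373 and 0.722 CPM in MEF, 5.06 and 5.27 CPM at day 2, and 855, 828 and 838 CPM at day 10. It measured 293 and 178 CPM in Epcam- cells, 393 and 82.4 CPM in Epcam+ cells, and 165 and 191 CPM in fetal TEC. Per kb of transcript, Jup led the plaque genes at day 10 (140 CPM per kb), followed by Perp (109) and Dsp (87.6). Jup, the plakoglobin gene, serves both adherens junctions and desmosomes and was present in MEF, at 112 and 87 CPM. It measured 84.4 and 82.6 CPM at day 2, 452, 441 and 451 CPM at day 10, 207 and 191 CPM in Epcam- cells, 345 and 957 CPM in Epcam+ cells, and 322 and 288 CPM in fetal TEC. Perp, a small membrane protein of desmosomes, went from 5.33 and 5.54 CPM in MEF to 209, 203 and 224 CPM at day 10, within the fetal range of 177 to 235 CPM. Its remaining values were 4.1 and 4.62 CPM at day 2, 72.7 and 62.2 CPM in Epcam- cells, and 114 and 346 CPM in Epcam+ cells.

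The 3 plakophilins, which link cadherins to desmoplakin, had 3 different courses. Pkp1 rose from 3.76 and 2.01 CPM in MEF to 128 to 134 CPM at day 10, above the 51.7 and 78 CPM of fetal TEC. Pkp3 rose from 0 to 22.7 to 23.6 CPM at day 10, below the 90.4 and 93.1 CPM of fetal TEC. Pkp2, also a plakophilin of mesenchymal and heart muscle cells, was highest in MEF (29.9 and 38.6 CPM) and day 2 (31.1 and 33 CPM), fell to 11.7 to 13.9 CPM at day 10, and was at 5.56 and 3.18 CPM in fetal TEC. Ppl and Evpl, periplakin and envoplakin, which bind the desmosome to the cornified envelope, were below 1 CPM in MEF and day 2 and reached 46.7 to 47.4 and 49.5 to 51.9 CPM at day 10. Their fetal libraries disagreed: 17.9 and 1.48 CPM for Ppl, and 4.7 and 0.527 CPM for Evpl.

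The connexin gene Gjb2 (Cx26) fell early and stayed low: 40 and 46.7 CPM in MEF, 11.4 and 11.2 CPM at day 2, and 16.7 to 18 CPM at day 10. It measured 5.04 and 5.51 CPM in Epcam- cells, 26.8 and 15.8 CPM in Epcam+ cells, and 15.6 and 32.5 CPM in fetal TEC, whose range held the day 10 values. Mal2, a protein of apical transport, rose from at most 0.16 CPM in MEF to 73.3, 68.6 and 78 CPM at day 10, above fetal TEC (10.3 and 13.9 CPM). Misp, a protein of cortical actin and the spindle, was instead an early and small riser, at 0.152 and 0.14 CPM in MEF, 0.816 and 0.792 CPM at day 2 and 0.82 to 1.02 CPM at day 10, against 49.8 and 74 CPM in fetal TEC.

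**Figure D2:**
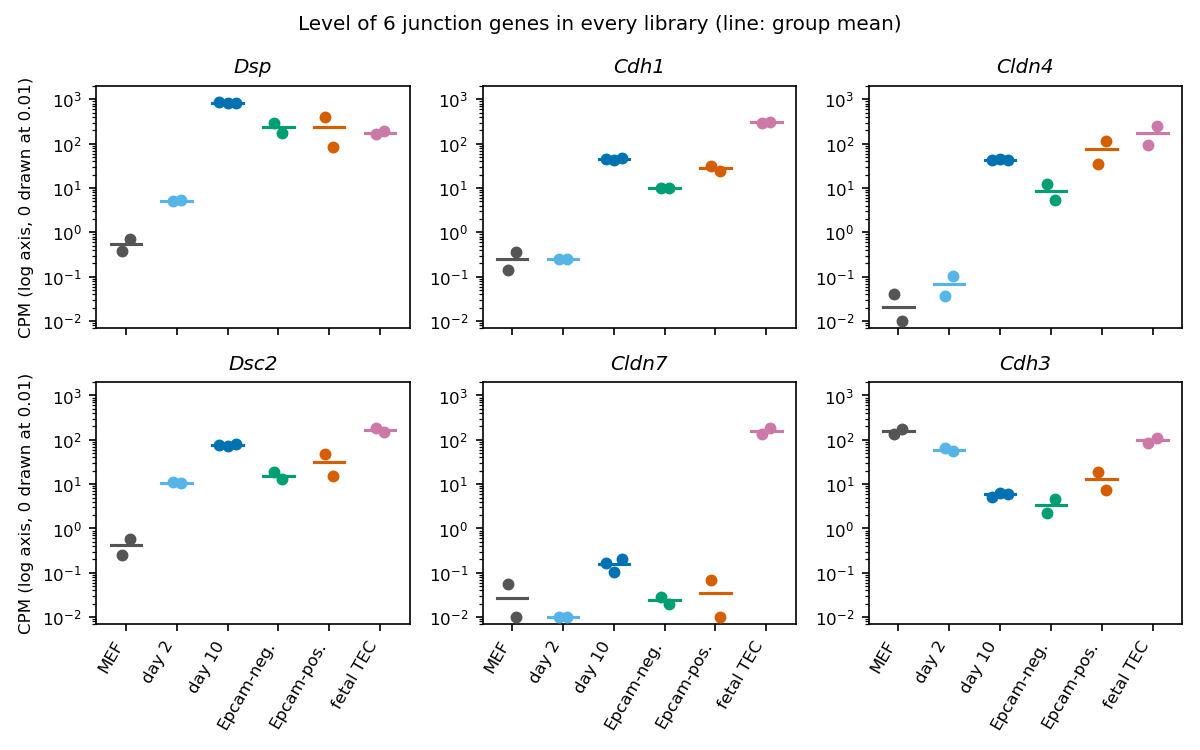
Level in CPM (log axis, 0 drawn at 0.01) of Dsp, Cdh1, Cldn4, Dsc2, Cldn7 and Cdh3 in every library of the 6 groups; points are libraries and lines are group means. Dsc2 and Dsp are above MEF at day 2 while Cdh1 and Cldn4 are not, Cldn7 is high in fetal TEC alone, and Cdh3 is high in MEF and fetal TEC.

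The order of induction was read from day 2 and day 10 against MEF. At day 2, 7 of the 35 genes tested were called, 6 higher and 1 lower, against 5.52% of all genes tested; the median of the 35 was 1.09 (0.05 with bounds and ratios in place of fitted values), against 0.00 over all genes. Cgn rose by 5.51 ± 0.88 (edgeR adjusted p = 0.00636) and Dsc2 by 4.71 ± 0.61 (adjusted p = 0.00197), and these 2 calls held without any 1 library. Without MEF replicate 1 the Cgn change was 4.37 and without replicate 2 it was 9.74; without MEF replicate 2 that of Dsc2 was 5.42. Dsp rose by 3.25 ± 0.67 (edgeR adjusted p = 0.0213) and Misp by 2.44 ± 0.42 (adjusted p = 0.00833). Pkp3 was at least 6.17-fold higher (edgeR adjusted p = 0.0173) and Cldn23 15.4-fold (95% counting interval 4.98 to 77.3, adjusted p = 0.0459). Gjb2 fell by 1.94 ± 0.41 (edgeR adjusted p = 0.0236). These 5 calls were lost without any 1 library of MEF or of day 2, at adjusted p up to 0.142 (Dsp), 0.0674 (Misp), 0.104 (Pkp3), 0.258 (Cldn23) and 0.204 (Gjb2). Those of Cldn23 and Gjb2 were also lost without any 1 library of day 10 or Epcam-, and that of Cldn23 without fetal TEC replicate 1. In all, 13 genes (10 higher, 3 lower) were called when the Epcam+ pair was left out of the fit, against 22.8% of all genes tested. Cdh1 (0.04 ± 0.41, edgeR adjusted p = 1) was not called at day 2, nor was any claudin but Cldn23.

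At day 10, 28 of the 35 genes were called against MEF, 24 higher and 4 lower, against 16.0% of all genes tested. The median of the 35 was 6.99 (5.51 with bounds and ratios), against 0.00 over all genes. All 4 desmosomal cadherins and 7 of the 8 plaque genes rose, as did Epcam and Cdh1, 3 of 7 claudins (Cldn4, Cldn8 and Cldn23), 4 of 6 other tight junction membrane proteins, and Cgn, Crb3, Mal2 and Misp. Without the Epcam+ pair in the fit 34 were called, 30 higher and 4 lower, against 40.2% of all genes tested; all 7 claudins and all 6 of the other membrane proteins were then among the higher, and Tjp1 alone was not called. By fitted change the first 4 among genes of at least 5 CPM had no count in MEF, so their sizes are bounds and their order is not known: Pkp3 (at least 944-fold, edgeR adjusted p = 0.000101), Dsg3 (at least 786-fold, adjusted p = 0.00398), Marveld3 (at least 404-fold, adjusted p = 0.00238) and Crb3 (at least 255-fold, adjusted p = 0.000479). Cdh1 rose by 7.49 ± 0.47 (edgeR adjusted p = 2.68e-05; 6.91 without MEF replicate 1 and 8.30 without replicate 2). Cldn4 stood 1772-fold above MEF (95% counting interval 606 to 8597, edgeR adjusted p = 0.000358); its fitted change was 14.37 without MEF replicate 1 and 9.97 without replicate 2. Dsp rose by 10.59 ± 0.89 (edgeR adjusted p = 0.000105) and Mal2 by 9.16 ± 0.54 (adjusted p = 2.4e-05). The 4 genes that fell were Cdh3 (by 4.74 ± 0.45, edgeR adjusted p = 0.00019), Pkp2 (by 1.4 ± 0.37, adjusted p = 0.0289), Gjb2 (by 1.31 ± 0.36, adjusted p = 0.034) and Tjp3, at least 26.4-fold lower (adjusted p = 0.022).

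Of these 28 calls, 19 held without any 1 library. F11r and Ildr1 were lost without either MEF library (adjusted p up to 0.0627 and 0.0607), and Jup, Ppl and Evpl without MEF replicate 2 (0.0733, 0.0553 and 0.0535). Tjp3 was lost without any 1 library of MEF or day 10 (up to 0.0938), Pkp2 and Gjb2 also without any of day 2 or Epcam- (up to 0.184 and 0.181), and Dsc3, called at adjusted p = 0.0335 and at least 18.6-fold higher, without any library but those of the Epcam+ pair (up to 0.159).

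Between day 2 and day 10, which share the sex-linked pattern, 26 genes were called, 24 higher and 2 lower, against 12.6% of all genes tested, and the median was 5.43 (4.53 with bounds and ratios) against 0.02. Dsg3 was at least 850-fold higher (edgeR adjusted p = 0.00442), Marveld3 437-fold (95% counting interval 149 to 2120, adjusted p = 0.00432), and Cldn4 and Mal2 were higher by 9.18 ± 1.06 (adjusted p = 0.000631) and 8.07 ± 0.51 (adjusted p = 4.19e-05). Cdh3 fell by 3.36 ± 0.43 (edgeR adjusted p = 0.00111) and Pkp2 by 1.3 ± 0.37 (adjusted p = 0.044). Dsc2 and Dsp, already up at day 2, rose by a further 2.83 ± 0.52 and 7.34 ± 0.77 (edgeR adjusted p = 0.00696 and 0.000419), whereas Misp did not pass the test (0.2 ± 0.35, adjusted p = 0.834). Without 1 of the day 2 libraries the count was 12 (replicate 1) or 13 (replicate 2), against 3.15% and 3.49% of all genes tested. Without replicate 1 the call of Marveld3 was lost (adjusted p = 0.051, at 7.90), without replicate 2 its change was 12.22 and that of Cldn4 was 10.15, and the Dsc2 call was lost without either (p up to 0.0905). The call of Pkp2 was lost without any 1 library of MEF, day 2, day 10 or Epcam- (up to 0.243).

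Fetal TEC against MEF, the positive against the starting control, gave 32 calls among the 35, 29 higher and 3 lower, against 57.8% of all genes tested; the median was 8.35 (7.94 with bounds and ratios) against 0.18 over all genes. Epcam was at least 17313-fold higher (edgeR adjusted p = 0.000114), Pkp3 at least 3730-fold (adjusted p = 3.68e-05), Ildr1 at least 1641-fold (adjusted p = 0.000678) and Ocln at least 1560-fold (adjusted p = 0.00112). Tjp1 was lower by 6.26 ± 1.54 (edgeR adjusted p = 0.00835), and the change was -8.99 without fetal TEC replicate 1 and -5.39 without replicate 2. Ildr2 and Pkp2 were lower by 4.58 ± 0.53 (edgeR adjusted p = 0.00026) and 2.97 ± 0.44 (adjusted p = 0.000822). The comparison shares its MEF libraries with the comparisons above.

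Against fetal TEC, day 10 was higher for some junction parts and far lower for others. Of the 35 genes with counts in fetal TEC, 12 stood at or above the fetal mean at day 10, 12 at 10 to 100% of it and 11 below 10%, of which Cldn3 (0.161%), Cldn7 (0.1%), Ocln (0.399%) and Tjp3 (0%) were below 1%. The 12 at or above it were 7 of the 8 plaque genes (Dsp, Pkp1, Pkp2, Jup, Ppl, Evpl and Perp) and Tjp1, Cgn, Crb3, Ildr2 and Mal2. Of these plaque genes, Pkp2 had fallen from its MEF level, and Pkp1, Jup and Perp did not pass the test given below. Dsp and Ppl were no longer called with an offset for transcript length. The 2 fetal libraries disagreed for Ppl (17.9 and 1.48 CPM) and Evpl (4.7 and 0.527 CPM). The 11 below 10% held no gene of the desmosomal plaque; they were Epcam, Cdh3, Cldn3, Cldn6, Cldn7, Ocln, Marveld2, Ildr1, Tjp3, Dsc3 and Misp.

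**Figure D3:**
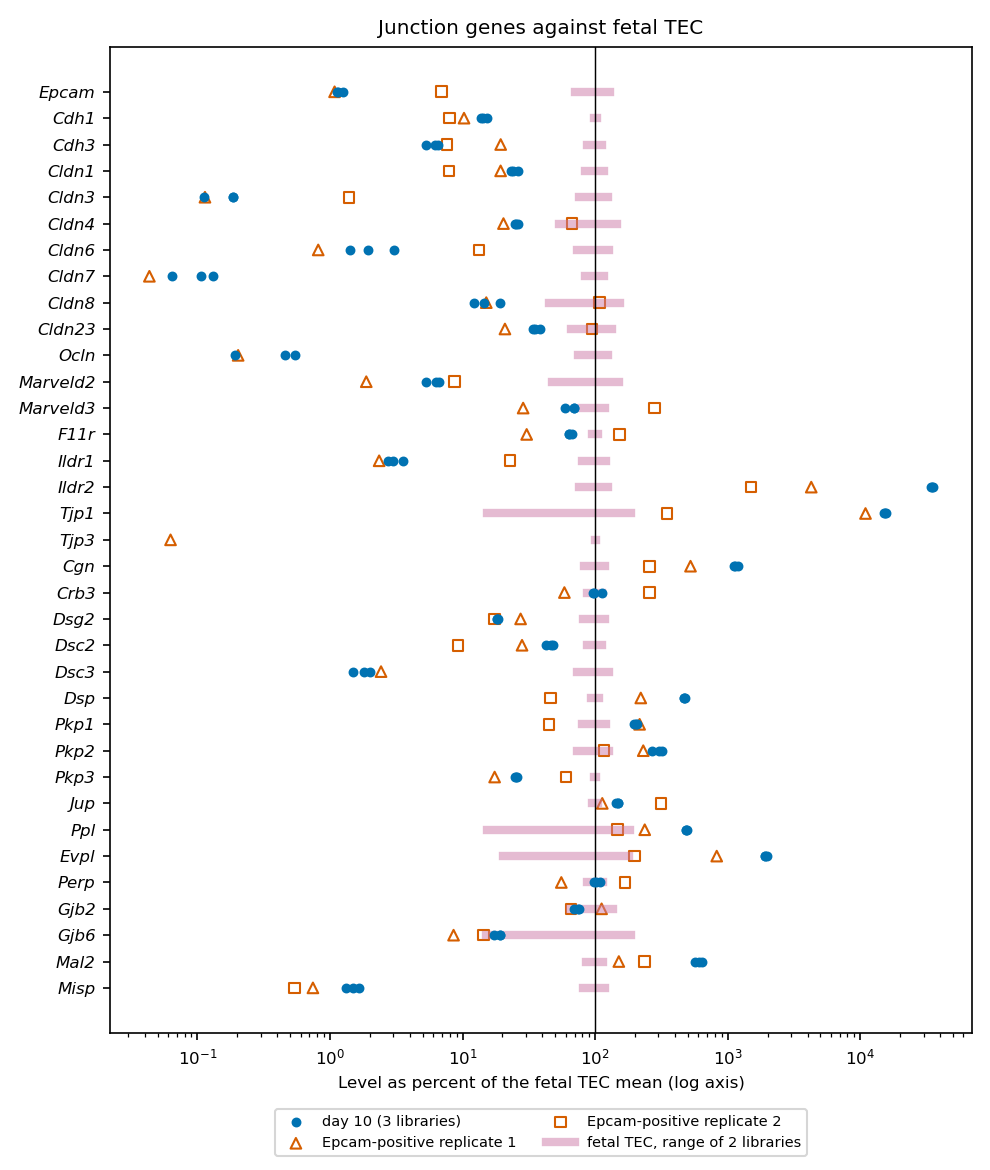
Level of each gene as percent of its fetal TEC mean (log axis): filled points are the 3 day 10 libraries, open marks the 2 Epcam+ libraries, and bars the range of the 2 fetal TEC libraries. Values of 0 and Dsg3, which was at 0 in fetal TEC, are not drawn. By the day 10 means, which are not drawn, 7 of the 8 desmosomal plaque genes stood above 100% and Pkp3 at 25.2%. Of these 7, Pkp2 had fallen from its MEF level. The day 10 means of Cldn3, Cldn7 and Ocln stood at 0.1 to 0.399%, and single libraries can lie outside these values.

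By the test, 26 of the 35 were called between day 10 and fetal TEC, 9 higher and 17 lower at day 10, against 59.3% of all genes tested, and the median was -1.48 against -0.10 over all genes. The largest differences downward were those of Tjp3 (at least 3486-fold lower, edgeR adjusted p = 0.000642), Cldn7 (-9.94 ± 0.86, adjusted p = 8.35e-05), Cldn3 (-9.29 ± 1.09, adjusted p = 0.000215) and Ocln (-7.93 ± 1.12, adjusted p = 0.00112). Epcam was lower by 6.41 ± 0.76 (edgeR adjusted p = 0.000345) and Cdh1 by 2.79 ± 0.33 (adjusted p = 0.000205). Upward they were Dsg3 (at least 737-fold higher, edgeR adjusted p = 0.00138), Ildr2 (8.42 ± 0.62, adjusted p = 2.01e-05), Tjp1 (7.26 ± 1.59, adjusted p = 0.00446) and Evpl (4.26 ± 0.99, adjusted p = 0.0058). Without fetal TEC replicate 1 the changes of Tjp1 and Evpl were 9.99 and 6.58, and without replicate 2 they were 6.39 and 3.43. Perp, Crb3, Jup, Pkp1, Gjb2, F11r, Marveld3, Cldn23 and Dsc2 did not pass the test, with changes of -1.48 to 1.02.

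Transcript length moved with this comparison for some of the genes. Ildr2, Tjp1, Evpl, Ppl and Dsp, all higher at day 10, have longest transcripts of 6.22 to 9.59 kb, and Cldn3 and Cldn7, far lower, of 1.26 and 1.33 kb. Other genes did not follow length: Dsg2 (5.77 kb), Dsc3 (5.33 kb) and Ocln (4.05 kb) stood at 18.3%, 1.78% and 0.399% of fetal TEC, and Crb3 (1.21 kb) and Perp (1.95 kb) both at 103%. With an offset for the trend of level on length in each library, 24 genes were called, 8 higher and 16 lower, against 54.1% of all genes tested. Dsp, which was higher by 2.24 ± 0.59 (edgeR adjusted p = 0.0103), then stood at -0.35 (adjusted p = 0.365), and Ppl, higher by 2.28 ± 0.82 (adjusted p = 0.0358), at 0.47 (adjusted p = 0.621). Cldn4 (-1.98 ± 0.65, edgeR adjusted p = 0.026) and Cldn8 (-2.71 ± 0.91, adjusted p = 0.0302) were also no longer called, at -0.84 (adjusted p = 0.257) and -1.96 (adjusted p = 0.0897). With the offset, Cldn7 stood at -8.53, Cldn3 at -7.84, Ocln at -8.66, Ildr2 at 6.06 and Tjp1 at 5.2, each still called. The calls of Dsp (either fetal TEC library, p up to 0.0636), Cldn4 (any day 10 library or fetal TEC replicate 2, to 0.264, at -1.07 without the latter), Cldn8 (any day 10 library or fetal TEC replicate 1, to 0.232, at -1.56 without the latter and -3.34 without replicate 2) and Ppl also depended on single libraries. Ppl was lost without any 1 library of MEF, day 2 or day 10 or Epcam- replicate 1 (to 0.0681), and its change was 5.00 without fetal TEC replicate 1 and 1.40 without replicate 2.

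**Figure D4:**
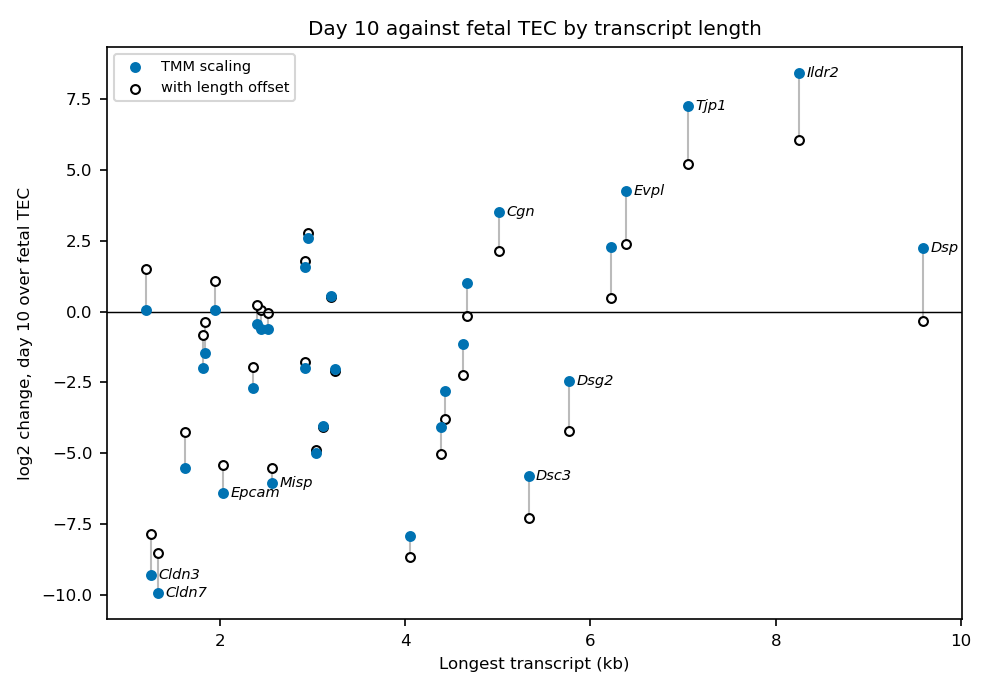
Change between day 10 and fetal TEC (log2, day 10 over fetal TEC) against the length of the longest transcript in kb, for the 33 genes with counts in both groups; filled points use TMM scaling, open points add the length offset, and lines join the 2 values of a gene. Ildr2, Tjp1 and Evpl stay above 0 with the offset, Dsp moves from 2.24 to -0.35, and Cldn3 and Cldn7 stay far below 0.

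Most genes of the set were higher in Epcam+ than in Epcam- cells at day 12, but none of the higher genes was called. The 2 fractions also differed in their sex-linked pattern (Xist at 1053 and 795 CPM in Epcam- cells, 1.34 and 0 CPM in Epcam+ cells). A difference by the sort therefore cannot be told apart from a difference of embryo. Between Epcam+ and Epcam- cells 1 of the 35 genes was called, against 0.259% of all genes tested: Ildr2, which was lower in Epcam+ cells by 2.97 ± 0.48 (edgeR adjusted p = 0.0494). That call was lost without any 1 library outside the Epcam+ pair (adjusted p up to 0.548), and the change was -3.92 without Epcam+ replicate 1. Epcam, the sorting marker, was higher by 5.38 ± 0.88 (edgeR adjusted p = 0.0632), with both Epcam+ libraries above both Epcam- libraries. At an unadjusted p under 0.05, 22 of the 35 passed, as did 3261 of all 17004 genes, and the median was 1.77 (1.71 with bounds and ratios) against 0.00 over all genes. No overlap between the pairs, in either direction, was seen for 24 of the 35 genes, against 45.4% of all genes tested. Epcam, on which the cells were sorted, is included in these counts and in the median.

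The 2 Epcam+ libraries were unlike each other, and the count followed them: 24 genes were called without Epcam+ replicate 1 (20 higher, 4 lower) and 11 without replicate 2 (10 higher, 1 lower), against 53.5% and 2.80% of all genes tested. The DESeq2 Wald test called 21 (20 higher, 1 lower), against 8.89%. Replicate 2 held more than replicate 1 of Epcam (6.39-fold), Cldn6 (16.4-fold), Cldn3 (12.2-fold), Marveld3 (9.8-fold) and Ildr1 (9.71-fold), and less of the long genes Tjp1 (0.0317-fold), Dsp (0.21-fold) and Evpl (0.24-fold). Fibroblast markers summed to 29857 CPM in replicate 1 and 2676 CPM in replicate 2, and thymic epithelial markers to 5360 and 45268 CPM. In the sum of replicate 2, Ccl25, Krt18 and Krt8 held 14955, 13384 and 11171 CPM. Other markers of that list held unlike shares of the fetal level there. Prss16 was at 24.7 CPM, against 11557 and 14182 CPM in fetal TEC. Psmb11, Krt5 and Ctsl were at 17.2%, 6.03% and 27.9% of the fetal mean, and Foxn1, Dll4 and Cd83 at 80.7%, 95.2% and 308%. The part of the differences between the 2 libraries in the results was not tested.

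Epcam- cells still carried much of the junction set. Against MEF, whose sex-linked pattern they share, 22 genes were called, 19 higher and 3 lower, against 11.9% of all genes tested, and the median was 3.93 (3.63 with bounds and ratios) against 0.00. Pkp3 was at least 202-fold and Dsg3 at least 200-fold higher (edgeR adjusted p = 0.000277 and 0.00867), and Dsp and Cgn were higher by 8.75 ± 0.84 (adjusted p = 0.00025) and 8.68 ± 0.96 (adjusted p = 0.000504). Cdh1 was higher by 5.36 ± 0.44 (edgeR adjusted p = 0.0001). Cdh3, Gjb2 and Pkp2 were lower by 5.5 ± 0.56, 3.04 ± 0.43 and 2.09 ± 0.42 (edgeR adjusted p = 0.000318, 0.00171 and 0.012). Without MEF replicate 2, 13 genes were called, against 4.15% of all genes tested, Dsg3 was lost (adjusted p = 0.056) and Cgn and Cdh1 stood at 12.91 and 6.17; without MEF replicate 1 Cgn stood at 7.51. The fitted change of Dsg3 (11.42) was 9.98 without Epcam- replicate 1 and 12.06 without replicate 2, that of Cdh3 was -6.13 without replicate 2, and Pkp2 was lost without either of them or MEF replicate 2 (p up to 0.118).

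Epcam+ cells against fetal TEC gave 17 calls, 4 higher and 13 lower, against 35.6% of all genes tested, and the median was -0.79 against 0.17 over all genes. Cldn7 (-11.79 ± 1.13, edgeR adjusted p = 0.00025), Tjp3 (-11.21 ± 1.57, adjusted p = 0.00302), Ocln (-9.64 ± 1.46, adjusted p = 0.00284) and Misp (-7.27 ± 0.49, adjusted p = 3.38e-05) were the lowest. Without Epcam+ replicate 1 the first 3 stood at -16.21, -15.09 and -14.21, and without replicate 2 at -11.12, -10.57 and -8.90. Dsg3 was at least 431-fold higher (edgeR adjusted p = 0.00345; its fitted change of 12.13 was 10.53 without Epcam+ replicate 1 and 12.90 without replicate 2), Tjp1 higher by 5.82 ± 1.51 (adjusted p = 0.0166), Ildr2 by 4.83 ± 0.54 (adjusted p = 0.000331) and Cgn by 1.96 ± 0.66 (adjusted p = 0.0438). Tjp1 stood at 1.79 and was not called without Epcam+ replicate 1 (6.77 without replicate 2), stood at 8.55 without fetal TEC replicate 1, and was not called at 4.95 without fetal TEC replicate 2 (p up to 0.131). Ildr2 stood at 3.89 without Epcam+ replicate 1. Cgn was lost without any 1 library except those of MEF and Epcam+ replicate 2 (p up to 0.16), at 1.37 without Epcam+ replicate 1. With only these 2 groups in the fit 3 genes were called, against 1.40% of all genes tested, and without Epcam+ replicate 2 the number was 29, against 57.4%.

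Genes around the set gave further values at day 10 against MEF. St14, the gene of the membrane protease matriptase, rose by 4.57 ± 0.69 (edgeR adjusted p = 0.0022), from 1.73 and 1.04 CPM in MEF to 31.7 to 34.5 CPM. Of 11 epithelial regulators, 2 were called higher at day 2, Grhl1 (3.37 ± 0.45, edgeR adjusted p = 0.00247) and Ovol1 (4.34 ± 0.87, adjusted p = 0.0196), 9 at day 10, and all 11 in fetal TEC against MEF, where the shares of all genes called were 5.52%, 16.0% and 57.8%. Grhl1, a grainyhead factor of epithelia, stood 9.7 ± 0.55 above MEF at day 10 (edgeR adjusted p = 2.4e-05), at 86.7 to 90.5 CPM, and was lower in fetal TEC (11.2 and 21.4 CPM). Grhl2, its relative known to drive Cdh1 and claudin genes, was chosen after its values were seen; it measured 0.207 to 0.333 CPM at day 10 and 40.4 and 44.1 CPM in fetal TEC. Among 5 repressors of E-cadherin, Snai2 and Zeb1 fell at day 10 (by 3.33 ± 0.4, edgeR adjusted p = 0.000632, and by 3.01 ± 0.81, adjusted p = 0.0324), against 16.0% of all genes called. From MEF to day 10 the mean of Snai1 went from 65.3 to 14.1 CPM, that of Zeb2 from 191 to 114 CPM and that of Twist1 from 90.6 to 114 CPM. In fetal TEC against MEF, Zeb1, Zeb2, Snai1 and Twist1 were lower, against 57.8% of all genes called. Snai2 held 142 and 184 CPM in fetal TEC against 67.3 and 166 CPM in MEF. The part of these repressors in the junction levels was not tested.

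Further junction genes, which many cell types share, held both directions. Inadl, also named Patj, a polarity scaffold of tight junctions, stood 3.67 ± 0.3 above MEF at day 10 (edgeR adjusted p = 9.31e-05). Of 12 further adherens junction genes, 3 were called higher (Ctnnb1, Plekha7 and Pvrl4) and 1 lower (Cdh2, the N-cadherin gene) at day 10, against 16.0% of all genes tested, with a median of -0.06. Ctnnb1, the beta-catenin gene, rose by 1.49 ± 0.28 (edgeR adjusted p = 0.00631). Of 10 further desmosomal and gap junction genes, 1 was called at day 10, below that share: Gja1, the connexin Cx43 gene, which rose by 1.99 ± 0.43 (edgeR adjusted p = 0.0132). Without the Epcam+ pair in the fit, the adherens junction list at day 10 gave 5 higher and 4 lower, and the desmosomal and gap junction list 6 higher and 0 lower, against 40.2% of all genes tested.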

How the data were processed

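RNA of 13 libraries in 6 groups was analysed from 1 table in which the authors deposited raw read counts for each gene symbol and library. The submitters' processing notes name FastQC, Trimmomatic, HISAT2, SAMtools, StringTie, DESeq2 and mm10, without versions or settings. Libraries held 35805780 to 86465460 counts; a floor of 3 counts was 0.03 to 0.0776 CPM. Genes were filtered by edgeR's filterByExpr, which left 17004 of 24394 symbols, scaled by TMM (factors 0.705 to 1.16) and fitted in 1 model of all groups with edgeR 4.0.16 (R 4.3.3), quasi-likelihood F test, robust, with Benjamini-Hochberg adjustment at 0.05. The scripts were tested on simulated data. Every column of the table belonged to a sample. The table's 24394 symbols matched lengths for 95.7%.

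Alternatives were DESeq2 1.42.0 size factors or Wald test, no filter, only the 2 groups compared, no Epcam+ pair, a replicate block, an offset for transcript length (lowess, span 0.3), and each library left out.

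The genes and lists were chosen with earlier results of these data known. Values in every library are given for Epcam, Cdh1 and, per role, up to 3 genes of highest mean CPM per kb; per comparison, up to 4 called rises and 4 falls of at least 5 CPM; of other lists, up to 3 genes of smallest p. Other genes named were chosen after their values were seen. Some genes of the further lists, and counts that include them, are not reported here.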

Additional observations from a re-analysis of the deposited data

Results flagged for a closer look

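Ildr2, Jup, Ppl and Perp lay below both MEF libraries at day 2 and above both at day 10 and in Epcam- cells, and Jup, Ppl and Perp also in Epcam+ cells. Between day 2 and day 10 the means differed 23.1-fold for Ildr2, 5.36-fold for Jup, 103-fold for Ppl and 48.7-fold for Perp; these differences were tested in the comparison of day 10 with day 2 and called by edgeR. The calls of Jup and Ppl were lost without either day 2 library (adjusted p up to 0.0657 and 0.0535). Between day 2 and Epcam- cells they differed 15-fold for Ildr2, 2.38-fold for Jup, 21.6-fold for Ppl and 15.46-fold for Perp, and between day 2 and Epcam+ cells 7.8-fold for Jup, 40.8-fold for Ppl and 52.8-fold for Perp. Those differences were not tested. None of the 4 genes was called at day 2 against MEF. There, Jup and Perp lay only a little below their MEF levels, and Ppl was below 1 CPM in every library of both groups. The share of all genes that separate in this way is not given, so the pattern may be common. Cldn1 lay above MEF at day 10 (5.78 CPM against 3.11 CPM) and below it in Epcam- cells (1.02 CPM), a 5.65-fold difference between these groups that was not tested.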

How the results depend on the processing

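At day 2 against MEF, the 7 calls became 12 with the DESeq2 Wald test, 13 without the Epcam+ pair and 2 with the replicate block, and ranged from 2 to 13 with each library left out. The other counts with each library left out were 12 to 29 for day 10 against day 2 (26), 13 to 28 for Epcam- against MEF (22), 0 to 24 for Epcam+ against Epcam- (1) 13 to 29 for Epcam+ against fetal TEC (17), 19 to 34 for day 10 against MEF (28), 23 to 31 for day 10 against fetal TEC (26) and 29 to 34 for fetal TEC against MEF (32). For Epcam+ against Epcam- the count was 0 without the filter, with only the 2 groups and with the replicate block, 2 with the length offset and 21 with the DESeq2 Wald test; for Epcam+ against fetal TEC it was 3 with only the 2 groups. The cause was not tested. Direction turned for Dsp at day 10 against fetal TEC with the length offset (-0.35). With each library left out, it turned for Epcam+ against Epcam- in Dsc3 (-6.59 to 1.64) and Dsp (-1.51 to 0.74), and for Epcam+ against fetal TEC in Marveld3 (-1.78 to 1.51), F11r (-1.7 to 0.63), Dsp (-1.1 to 1.16) and Perp (-0.83 to 0.76), each through 1 of the Epcam+ libraries. Same-numbered libraries deviated little together (7 of 30 correlations over 0.1, range -0.362 to 0.217), so the replicate numbers were not taken as pairs. Between 2 groups of 2 libraries both replicates give the same value, so the 30 are not separate checks. The highest value was that of Epcam- with Epcam+ cells. Of the single-gene values under all alternatives, 4957 kept their direction and side of the threshold, 258 lost a call, 218 gained one, 58 moved and 7 turned.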
